A study of Homo sapiens with 4 samples.

Results

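Keratins are the intermediate filament proteins of epithelial cells, and the 10 keratin genes described here are those by which breast and skin epithelium are commonly told apart by layer and state. They were read as human gene rows in human cell barcodes of both single-cell pools, and they are 10 of the 36601 human genes in the matrices. KRT5, KRT14 and KRT15 are basal keratins, KRT8, KRT18 and KRT19 are luminal (simple epithelial) keratins, KRT6A, KRT16 and KRT17 are keratins of stressed or wounded epithelium, and KRT10 is a suprabasal keratin of differentiating epidermis. The rule names the genes and uses no measured value, and the list was drawn up with earlier results of these data known.

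The study asked how the age of the tissue matrix bears on tumour formation. MCF10DCIS.com cells, a human breast line that forms lesions like ductal carcinoma in situ when grafted, were seeded on decellularised mammary matrix of aged mice (18 months or older) or of young mice (2 to 3 months). The seeded matrices were cultured for 12 days and implanted at the right or left mammary fat pad of Rag1-/- mice, a strain without mature lymphocytes of the T and B lineages. The tumour and the stroma next to it were taken after 4 weeks. Both pools share the cell line, the host genotype, dead cell removal and hashing antibodies, and the line stands for 1 tumour cell source in an immune-deficient host. Each matrix age gave 1 gene expression library (3′ 10x chemistry), so the pools are compared without a test across samples, and a difference between them cannot be told apart from a difference between the animals or the libraries. The labels do not tie a hashing tag to an animal.

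After the filters 2001 human cells were kept in the aged matrix pool and 2105 in the young matrix pool, with medians of 30455 and 30825 human UMIs (unique molecular identifiers, each standing for 1 captured transcript) per cell and totals of 77321298 and 79145096. The epithelial markers EPCAM, CDH1, KRT5, KRT14, TP63 and ITGA6 together had 2402 CPM (counts per 1000000 human UMIs) in the aged pool and 2486 CPM in the young pool, and all 6 were found in each. KRT5 and KRT14 are also among the keratins described here. In the aged pool KRT5 had 768 CPM and KRT14 945 CPM of this sum, and in the young pool 765 and 1028 CPM. The sum is therefore not a check of cell identity apart from the keratins, and a sum without them was not computed. Human leukocyte, fibroblast and endothelial marker lists (3 genes each) had between 5.09 and 13.4 CPM in either pool, with CD3E at 0 UMIs in both. Mouse neutrophil genes (all 5 found) stood at 1094 UMIs per 1000000 human UMIs in the human cells of the aged pool and at 1429 in those of the young pool, mouse fibroblast genes at 47.4 and 17.7, mouse macrophage genes at 11.8 and 18.6, and mouse NK genes at 1.95 and 0.619 (Klrb1c at 0 UMIs in the aged pool). The part of these host genes in the keratin values was not tested directly. In a rerun over cells with a human share of gene UMIs of at least 0.98, 0 keratins reached 1.5-fold between the pools. The KRT6A ratio of aged over young was 0.756 in that rerun, against 0.716 over all kept cells. The pools shared 190 barcodes of all kinds, of which 2 were human cells kept in both.

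Keratins work in pairs. A type I keratin and a type II keratin form an obligate heterodimer, and the dimers assemble into filaments that anchor at desmosomes between cells and at hemidesmosomes on the basement membrane. KRT5 pairs with KRT14, and with KRT15 in the basal layer; KRT8 pairs with KRT18 and KRT19; KRT6A pairs with KRT16 and KRT17, which keratinocytes switch on after injury; and KRT10 pairs with KRT1. In the normal mammary duct the outer myoepithelial layer carries the basal pair and the inner layer facing the lumen carries the simple epithelial pair.

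The 10 genes lie in 2 keratin clusters of the genome (GRCh38, GENCODE v29). The type II genes are on chromosome 12: KRT6A from 52487174 to 52493257, KRT5 from 52514575 to 52520687 and KRT8 from 52897187 to 52949954, all on the minus strand. KRT18, although a type I gene, lies beside KRT8 at 52948871 to 52952901 on the plus strand, so the annotated KRT8 and KRT18 genes overlap on opposite strands. The other type I genes are on chromosome 17, minus strand: KRT10 from 40818117 to 40822595, KRT15 from 41513743 to 41522529, KRT19 from 41523617 to 41528308, KRT14 from 41582279 to 41586921, KRT16 from 41609778 to 41615899 and KRT17 from 41619441 to 41624842.

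Keratin messages resemble each other closely at the end of the central rod, the stretch where the coiled coil finishes. This stretch was located by a motif that the members share, so it does not show how alike the messages are elsewhere. The lines give 30 coding bases of each transcript, sense strand, 5′ to 3′, from the GENCODE v29 transcripts. Capitals mark bases that differ from KRT14 in the type I genes.
KRT14: acctaccgccgcctgctggagggcgaggac
KRT16: acctaccgccgcctgctggagggcgaggaT
KRT17: acctaccgccgcctgctggagggAgaggaT
KRT15: acTtaccgcAgcctgctCgagggcCaggaT
KRT19: acctaccgcAgcctgctCgagggACaggaA
KRT18: acctaccgccgcctgctggaAgATgGCgaG
KRT10: acctaccgcAgcctgctAgaAggAgaggGA

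In the type II genes capitals mark bases that differ from KRT5.
KRT5: acttaccgcaagctgctggagggcgaggaa
KRT6A: acCtaccgcaagctgctggagggTgaggaG
KRT8: acCtacAgGaagctgctggagggcgaggaG

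KRT16 differed from KRT14 at 1 of the 30 bases and KRT17 at 2, while KRT10 and KRT18 differed at 6. The kit counts at the 3′ end of the message. Of the 411 windows of 90 bases in the last 500 bases of each transcript, none occurred in a transcript of another gene for 8 of the 10 members. KRT8 shared 15 windows (3.65%) with the pseudogene KRT8P3 and KRT16 shared 1 (0.243%) with KRT16P3. Only exact matches were searched, so windows that differ by a single base were not found. Since a 3′ kit counts 1 end per transcript, UMI levels can be set side by side between genes without a correction for length.

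Tumour cells in both pools carried basal, luminal and stress keratins at high levels, and the order of the genes was the same in both. KRT17 was highest, at 3899 CPM in the aged pool and 3853 CPM in the young pool, which placed it 40th among human genes in the aged pool. KRT15 followed with 3058 and 2874 CPM, then KRT18 with 1395 and 1338 CPM and KRT8 with 1121 and 1075 CPM. KRT14 had 945 CPM in the aged pool and 1028 CPM in the young pool, and KRT5, the type II partner of KRT14, had 768 and 765 CPM. Lower down were KRT16 with 384 CPM in the aged pool and 407 CPM in the young pool, KRT10 with 181 and 177 CPM, KRT6A with 80.2 and 112 CPM, and KRT19 with 39.3 and 36.5 CPM. Intervals for counting error did not overlap between neighbours in this order within either pool.

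Together the 10 genes held 1.19% of all human UMIs in the aged pool and 1.17% in the young pool. Of these keratin UMIs, 40.2% in the aged pool and 40.002% in the young pool were basal, 21.5% and 21.0% luminal, 36.8% and 37.5% from the stress keratins, and 1.52% in each pool were KRT10. Most of the basal share was KRT15, with 25.8% in the aged pool and 24.6% in the young pool. KRT5 held 6.47% and 6.55%, and KRT14 7.96% and 8.81%. The basal share thus exceeded the luminal share only with KRT15 counted as basal. Within these 10 genes, type I messages outnumbered type II messages 5.03-fold in the aged pool and 4.98-fold in the young pool. Keratins outside the 10 are not counted in this ratio. Among them the type II genes KRT81, KRT7 and KRT6B had 2437, 1844 and 1269.8 CPM in the aged pool, and the type I gene KRT23 had 165 CPM. The ratio thus depends on which genes are listed. Among the pairs, KRT18 over KRT8 was 1.24 in the aged pool and 1.25 in the young pool, and KRT14 over KRT5 was 1.23 and 1.34. Among the members the stress pair was far from even. There were 4.78 UMIs of KRT16 for each of KRT6A in the aged pool and 3.63 in the young pool, and 48.6 and 34.4 of KRT17. These ratios leave out KRT6B, a close relative of KRT6A that is not a member and had 1269.8 and 1356 CPM, above KRT16.

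**Figure D1:**
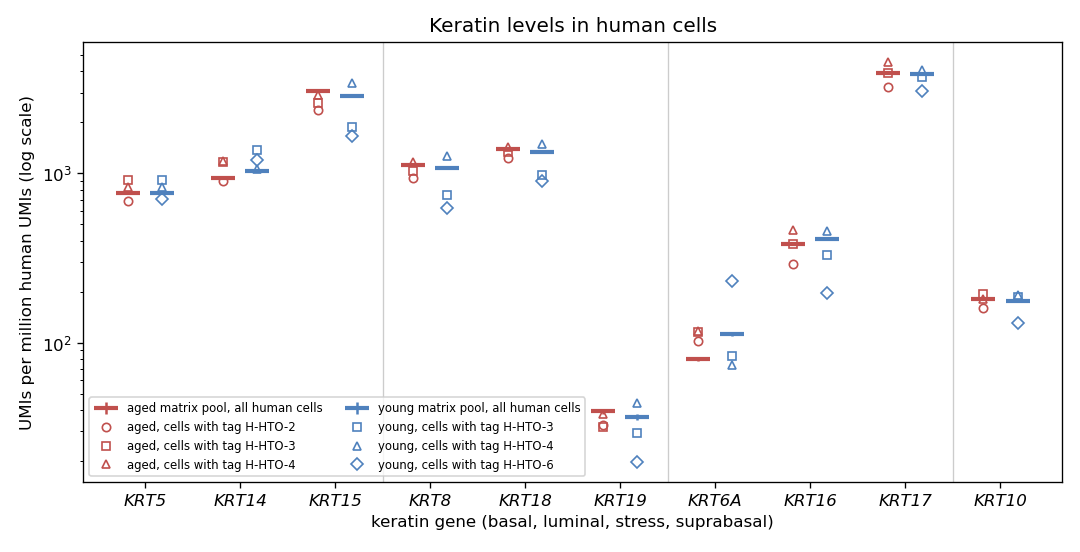
Level of each keratin (CPM, log axis) in the aged matrix pool (red, left) and the young matrix pool (blue, right). Bars are all human cells, with counting intervals smaller than the bar; open symbols are sets of at least 100 cells that carried 1 hashing tag. The pool bars lie almost level for every gene but KRT6A, and the tag sets of the pools overlap for all 10.

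None of the 10 keratins reached a 1.5-fold difference between the pools, in a table where 10 of 5429 measured genes (0.184%) did so. A gene counted as measured when the pool with more of it reached 20 CPM and both pools together held 100 UMIs, which all 10 members met. Of all measured genes 0.0184% stood apart upward and 0.166% downward in the aged pool. The member furthest from an even level was KRT6A, whose product is made by keratinocytes at wound edges: its 80.2 CPM in the aged pool stood against 112 CPM in the young pool, 1.40-fold lower (95% interval 1.35 to 1.44, counting error only). KRT14 had a ratio of aged over young of 0.920 (0.911 to 0.929) and KRT16 of 0.942. For the other 7 genes the ratio ran from 1.005 for KRT5 to 1.08 for KRT19. The median log2 ratio of the members was 0.02, and that of all measured genes was 0.00 to 2 decimals.

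Sets of cells with different hashing tags show how much a keratin varied within a pool. KRT6A had 102, 115 and 117 CPM in the aged pool's sets with tags H-HTO-2, H-HTO-3 and H-HTO-4, and 83.0, 73.7 and 230.2 CPM in the young pool's sets with tags H-HTO-3, H-HTO-4 and H-HTO-6. The 3 aged sets lay inside the range of the young ones, and the young H-HTO-6 set of 113 cells was the highest of all. All 3 aged sets were also above the pooled value of 80.2 CPM; 948 of the 2001 aged cells and 882 of the 2105 young cells carried 1 tag. Leaving out the cells of H-HTO-2, H-HTO-3 or H-HTO-4 from both pools moved the KRT6A ratio to 0.665, 0.659 and 0.609, each of them past 1.5-fold; over cells with 1 tag it was 0.898.

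KRT15 also varied between sets inside a pool. It had 2368, 2614 and 2916 CPM in the 3 aged sets and 1872, 3426 and 1658 CPM in the 3 young sets, where the H-HTO-4 set was above the whole pool and the other sets were well below it. KRT8 had 942, 1029.8 and 1162 CPM in the aged sets and 744, 1259 and 628.5 CPM in the young ones, so the same young set was again the highest. KRT14 ran the other way among the young sets, with 1379, 1065 and 1203 CPM, and had 906, 1167 and 1184 CPM in the aged sets. For all 10 members the aged and young sets overlapped; over all measured genes 3.48% had sets that did not, 1.75% with the aged sets higher and 1.73% with them lower.

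With KRT15 counted as a basal keratin, almost every tumour cell carried basal and luminal keratin messages at once. With each cell thinned to 2000 UMIs, at least 1 UMI of a basal and of a luminal keratin was found in 88.7% of 1964 cells in the aged pool (exact binomial interval 87.3 to 90.1%) and in 87.9% of 2061 cells in the young pool (86.4 to 89.3%). Luminal without basal UMIs were found in 2.44% and 3.40% of cells, and basal without luminal UMIs in 7.28% and 7.47%. KRT15 alone was found in 85.7% and 84.6% of thinned cells. Pairs without it were found together less often: KRT5 with KRT8 in 41.7% and 41.1%, and KRT14 with KRT18 in 41.8% and 45.0%. The share of cells with a basal keratin other than KRT15 was not computed. Unthinned, 98.0% of cells in the aged pool and 97.8% in the young pool had both. All 4 classes at once, KRT10 included, were found in 23.9% and 24.1% of thinned cells, and 7 and 8 cells had no UMI of the 10 genes.

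By gene, the shares of thinned cells with a UMI were highest for the most abundant keratins. KRT17, the most abundant, was found in 90.2% of cells in the aged pool and 90.4% in the young pool, and KRT15 in 85.7% and 84.6%. KRT18 was found in 78.4% and 80.9%, KRT8 in 74.7% and 73.6%, KRT5 in 52.5% and 51.9%, and KRT14 in 51.2% and 53.6%. KRT16 was found in 33.6% in each pool and KRT10 in 28.2% and 28.8%. KRT6A, with 7.38% and 7.57%, and KRT19, with 6.06% and 6.70%, were found in few cells at this depth; unthinned, KRT19 was found in 50.2% and 48.9% of cells and KRT6A in 34.2% and 35.4%.

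Free RNA gave a low background. Mouse host cells thinned to the same 2000 UMIs, counting human and mouse genes together, had a KRT15 UMI in 13.7% of 7918 cells in the aged pool and 14.1% of 7412 cells in the young pool, the highest share of any member. KRT17 was found in 12.8% and 14.02% of mouse cells, KRT8 in 3.45% and 3.49%, and KRT19 in 0.152% and 0.108%. Every member had a share in human cells at least several times that in mouse cells. The mouse cells' human UMIs put free RNA at no more than 0.315% of any member's UMIs in human cells. UMIs on the matching mouse keratin gene came to at most 0.0717% of the member's UMIs in human cells, except for KRT19 with 0.987% in the aged pool and 2.22% in the young pool.

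The luminal share of basal and luminal keratin UMIs differed widely from cell to cell, with a single peak. In cells with at least 50 UMIs of the 6 basal and luminal genes, KRT8, KRT18 and KRT19 made up a median of 34.5% of these UMIs in the aged pool (1629 cells) and 34.0% in the young pool (1710 cells). The 372 aged and 395 young cells with fewer were left out. The central 90% of cells ran from 13.2% to 60.7% in the aged pool and from 14.5% to 60.9% in the young pool. The SD across cells was 14.5 percentage points in the aged pool and 14.3 in the young pool, against 3.56 and 3.58 expected from counting alone. Cells above 80% luminal made up 0.491% and 0.702%. Over all human cells KRT15 held 236437 of the 368925 basal UMIs in the aged pool and 227474 of 369314 in the young pool. KRT15 varied with the luminal keratins (below). This share therefore cannot show whether cells form groups by KRT5 and KRT14 against the luminal keratins.

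**Figure D2:**
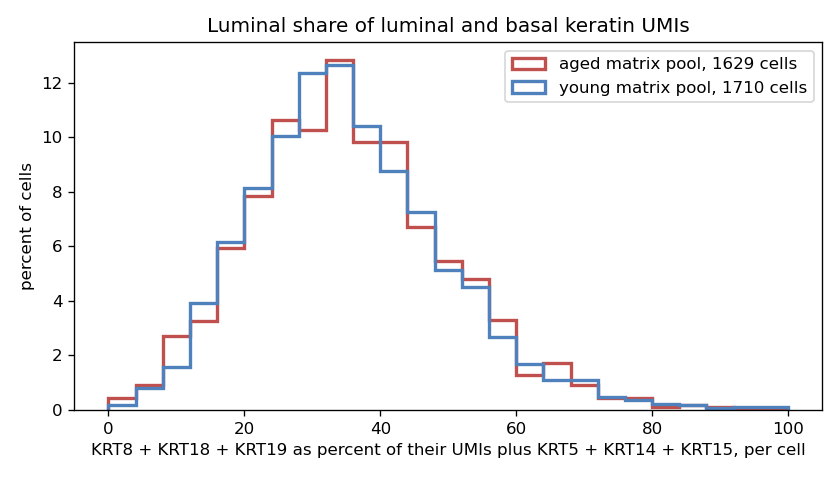
Distribution over single cells of the luminal share (KRT8, KRT18 and KRT19 as percent of their UMIs plus those of KRT5, KRT14 and KRT15), in bins of 4 percentage points, as percent of cells. The aged pool (red) and the young pool (blue) each have a single peak, near their medians of 34.5% and 34.0%.

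Across single cells the luminal pair and the basal pair each varied together. KRT15, a basal keratin, varied more closely with the luminal keratins than with the basal pair. Levels per cell were taken as the natural log of 1 plus UMIs per 10000, and Pearson's r was computed within each pool over its 2001 aged or 2105 young cells; cells of a library share their source, and r is a description. The highest correlation was that of the luminal pair KRT8 and KRT18, with r of 0.71 in each pool. KRT15 correlated with KRT8 at 0.57 in the aged pool and 0.58 in the young pool, with KRT18 at 0.48 and 0.46 and with KRT19 at 0.38 and 0.37. Its r with KRT14 was -0.08 in the aged pool and 0.01 in the young pool, and with KRT5 0.12 and 0.13. KRT5 and KRT14, the basal pair, correlated with each other at 0.51 and 0.52. This pair was not separate from the luminal keratins. KRT5 stood at 0.28 and 0.32 with KRT8 and at 0.25 and 0.30 with KRT18, above its r with KRT15. KRT14 stood at 0.18 and 0.22 with KRT8 and at 0.14 and 0.21 with KRT18. After thinning to 5000 UMIs, KRT5 stood at 0.16 and 0.22 with KRT8 and at 0.18 and 0.19 with KRT18.

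Among the stress keratins KRT16 and KRT17 correlated at 0.48 in the aged pool and 0.44 in the young pool, and KRT6A and KRT17 at 0.34 and 0.33. KRT6A and KRT16, which pair as proteins, stood at 0.20 and 0.25. KRT16 stood higher with KRT15 (0.37 and 0.39) and KRT8 (0.37 and 0.33) than with KRT6A. KRT6A had an r below 0 with KRT15, KRT8, KRT18 and KRT19 in each pool, between -0.13 and -0.06. KRT10 reached no more than 0.19 with any other member. In all, 17 of the 45 pairs had r of at least 0.2 in both pools. The level of every member also went up with the depth of the cell, with r against log10 UMIs between 0.06 and 0.39; after thinning to 5000 UMIs 8 pairs remained at 0.2 or above in both pools, and KRT8 with KRT15 stood at 0.51 in the aged pool and 0.48 in the young pool. The pairs with KRT19, a gene of few UMIs, were no longer among them: KRT19 stood at 0.20 and 0.19 with KRT15, at 0.19 and 0.15 with KRT8 and at 0.14 and 0.13 with KRT18.

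**Figure D3:**
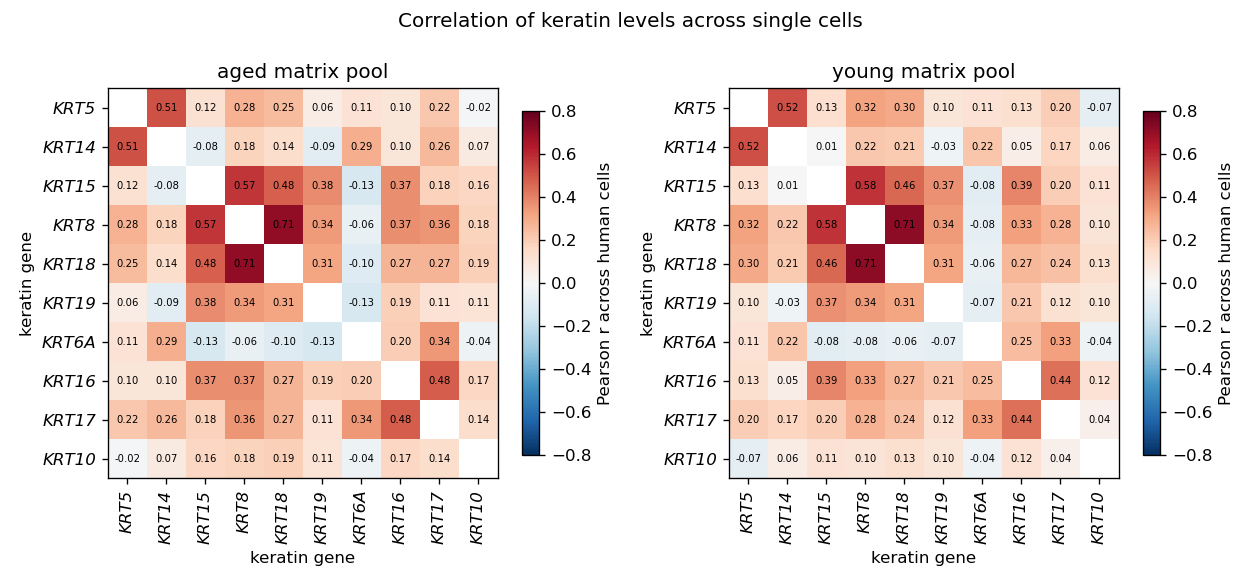
Pearson correlation of keratin levels across single human cells, aged matrix pool on the left and young matrix pool on the right, with each value printed in its cell. The block of KRT15, KRT8, KRT18 and KRT19 and the pair KRT5 and KRT14 stand out in both pools, while KRT14 with KRT15 is near 0.

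Shares of cells at equal depth showed the same pairs. Of cells with a KRT5 UMI, 62.7% in the aged pool and 65.0% in the young pool also had KRT14, against 38.4% and 41.3% of cells without KRT5. Of cells with a KRT8 UMI, 90.4% and 89.5% had KRT15, against 71.8% and 71.0% of cells without KRT8. KRT15 was found in 82.9% of KRT14-positive cells of the aged pool and 83.7% of those of the young pool, and in 88.6% and 85.6% of cells without KRT14. Cells with both KRT14 and KRT18, one keratin of each layer, made up 41.8% of the aged pool and 45.0% of the young pool, against 40.1% and 43.4% for the product of the separate shares.

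Ranking cells by KRT15 and summing UMIs within quartiles of the cells gives the same relation as levels. Between the lowest and the highest quartile, KRT15 itself ran from 353 to 5600 CPM in the aged pool and from 325 to 5511 CPM in the young pool. KRT8 ran from 442 to 1482 CPM in the aged pool and from 445 to 1500.1 CPM in the young pool. KRT18 ran from 701 to 1678 CPM and from 773 to 1682 CPM, and KRT16 from 155 to 525 CPM and from 139 to 604 CPM. KRT14 went down at each step in the aged pool, from 1187 to 801 CPM. In the young pool KRT14 had 1173 CPM in the lowest quartile and 932, 1049.9 and 974 CPM in the next ones, with no steady fall. KRT6A was lower in the highest quartile than in the lowest, at 44.6 against 136 CPM in the aged pool and 87.9 against 149 CPM in the young pool. The quartiles differed in depth, with medians between 25957 and 34560.5 UMIs in the aged pool and between 27414 and 34006.5 in the young pool; the part of depth in these runs was not tested.

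**Figure D4:**
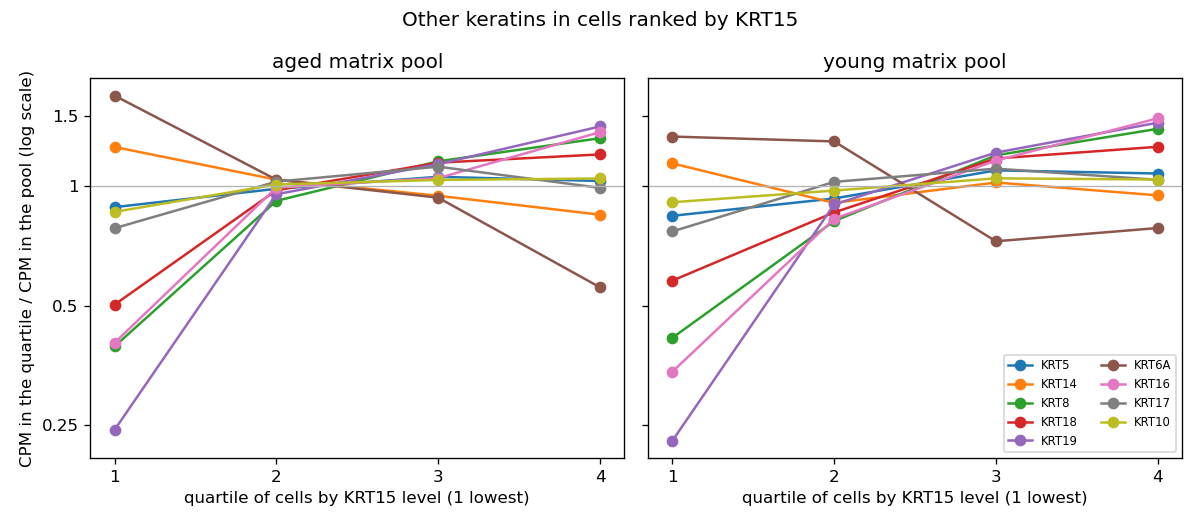
Level of the other 9 keratins in quartiles of the cells ranked by KRT15 level, divided by the level in the whole pool (log axis), aged matrix pool on the left and young matrix pool on the right. KRT8, KRT18, KRT19 and KRT16 are lowest in the quartile with least KRT15, where KRT14 and KRT6A are highest.

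The same ranking by KRT17 ordered the other stress keratins. KRT16 ran from 119 CPM in the lowest quartile to 717 CPM in the highest in the aged pool, and from 127 to 800.4 CPM in the young pool. KRT6A ran from 12.9 to 232 CPM in the aged pool and from 22.5 to 326 CPM in the young pool, with most of the step between the third and the highest quartile. Ranked by KRT14, its partner KRT5 ran from 353 to 1262 CPM in the aged pool and from 355 to 1219 CPM in the young pool, while KRT15 stayed between 2833 and 3161 CPM in the aged pool and between 2710 and 3137 CPM in the young pool.

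KRT6A was the member most confined to few cells. The 5% of cells with the most KRT6A UMIs (100 cells in the aged pool, 105 in the young pool) held 76.5% of them in the aged pool and 77.3% in the young pool, and a single cell held 7.26% and 4.398%. For KRT16 the top 5% held 39.8% and 40.1%, for KRT14 37.7% and 36.5%, and for KRT15 24.8% and 24.5%. KRT10 had the lowest share in its top cells, with 23.7% and 21.4%, near the 18.7% and 17.5% of all UMIs that the deepest 5% of cells held. The coefficient of variation of the level per cell was 4.39 for KRT6A in the aged pool and 4.61 in the young pool, against 0.728 and 0.730 for KRT18, the lowest; KRT10 had 1.004 and 1.57 on this measure.

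Clustering the human cells of both pools together without any keratin gene gave 12 clusters, each with at least 65 cells per pool. In each pool every member differed at least 2.01-fold between its highest and its lowest cluster. Clusters are drawn so that cells differ in expression, so this range is not comparable with the ratio between the pools. Clusters are given by number and by their leading genes, and a level in a cluster is a description. The lowest KRT15 was in cluster 3 (175 cells in the aged pool, 196 in the young pool), led by the chemokine genes CXCL14 and CCL19 and by APOE: KRT15 had 492 CPM there in the aged pool and 548 CPM in the young pool. KRT8 (333 and 397 CPM), KRT18 (562 and 694 CPM), KRT16 (32.1 and 52.6 CPM) and KRT17 (1823 and 2159.7 CPM) were also lowest there. KRT14 (1629 and 1569 CPM) and KRT5 (1060 and 969 CPM) were above their pool levels in the same cluster.

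At the other end, KRT15 was highest in cluster 2, led by AGR2, UNC5B-AS1 and KLK6, with 4885 CPM in the aged pool and 4844 CPM in the young pool, and KRT19 was highest there too, at 65.0 and 64.5 CPM. KRT8 was highest in cluster 4, led by the secretoglobin genes SCGB2A2 and SCGB1D2, with 1558 CPM in the aged pool and 1539 CPM in the young pool. KRT18 was highest in cluster 7, led by the mitotic genes ASPM and CCNB1, with 1807 and 1722 CPM. In cluster 1, led by the matrix metalloproteinase genes MMP1 and MMP9, luminal keratins were low, with KRT19 at 8.67 and 5.73 CPM and KRT8 at 471 and 444 CPM, and KRT6A was high at 235 and 304 CPM.

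KRT16 and KRT17 were highest in cluster 8, led by IGFL1 and the epidermal differentiation genes SBSN and SPINK5: KRT16 had 972 CPM in the aged pool and 1084 CPM in the young pool, and KRT17 had 6740 and 7181 CPM. KRT6A was also high in cluster 8 (278 and 394 CPM) and highest in cluster 10, led by S100A8 and S100A7, with 282 CPM in the aged pool and 865 CPM in the young pool. Cells of cluster 10 were shallow, with median depths of 4758 and 4335.5 UMIs, so its values rest on fewer UMIs than the others. In cluster 9, led by SERPINE2 and the heat shock gene HSPA6, KRT6A had 212 CPM in the aged pool and 59.7 CPM in the young pool, the opposite order. KRT5 was lowest in cluster 9, at 168 and 156 CPM, and highest in cluster 11, led by histone genes, at 1263 and 1315 CPM, where KRT14 was highest as well (1633 and 1803 CPM).

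**Figure D5:**
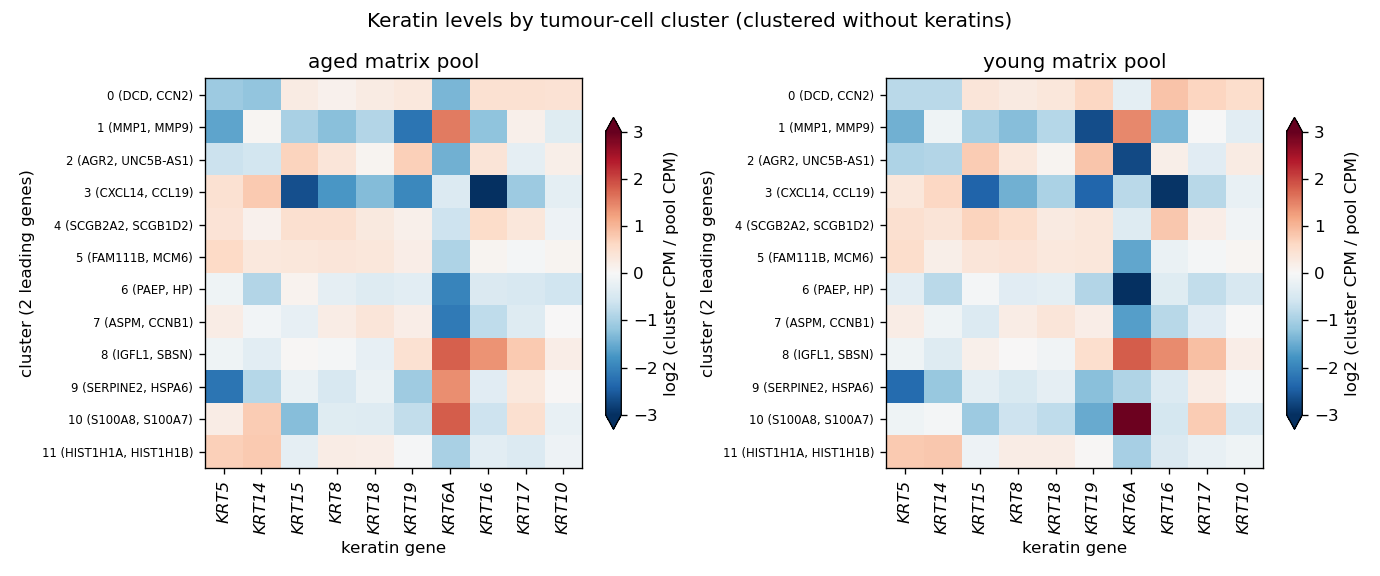
Log2 of each keratin's level in a cluster over its level in the whole pool, aged matrix pool on the left and young matrix pool on the right; rows are the 12 clusters, drawn without keratin genes and named by 2 leading genes. Colours stop at 3 in either direction. Cluster 3 is low for KRT15, KRT8 and KRT16 and high for KRT14, and KRT10 varies least across clusters.

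The highest cluster exceeded the lowest by 30.3-fold for KRT16 in the aged pool and 20.6-fold in the young pool, by 15.2-fold and 83.7-fold for KRT6A, by 9.94-fold and 8.85-fold for KRT15, and by 7.52-fold and 8.46-fold for KRT5. KRT10 varied least, at 2.02-fold and 2.01-fold. With levels centred on each cluster's mean (added after the data were seen), KRT8 and KRT15 correlated at 0.40 in the aged pool and 0.41 in the young pool, and 14 pairs were at 0.2 or above in both pools.

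Among 12214 genes found in at least 5% of human cells, the genes whose pattern across cells was most like that of each keratin were ranked by the lower of the 2 pools' correlations. Levels were not thinned for this ranking, and the part of depth in it was not tested. For KRT8 these were KRT18, KRT7 and KRT15, with lower r of 0.71, 0.59 and 0.57, and for KRT18 they were KRT8, KRT7 and KRT15, with 0.71, 0.51 and 0.46. KRT7 is another simple epithelial keratin. For KRT15 they were CD24, a cell surface glycoprotein used as a luminal marker in breast, KRT7 and KRT8, all at 0.57, and for KRT19 CD24, AZGP1 and KRT7, with 0.41, 0.39 and 0.38.

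The basal pair had other neighbours. KRT5 was closest to NME1, a nucleoside diphosphate kinase, and ATP5MC1, a subunit of ATP synthase, both at 0.56, and then to KRT14 at 0.51. KRT14 was closest to KRT5 at 0.51, to the glutathione transferase gene GSTP1 at 0.40 and to NME1 at 0.37. KRT6A was closest to S100A7, the antimicrobial protein psoriasin, at 0.40, to KRT6B at 0.39 and to the cornified envelope gene SPRR1B at 0.37. KRT16 was closest to S100P, KRT23 and CD24, with 0.46, 0.45 and 0.45, and KRT17 to KRT6B, KRT16 and S100A14, with 0.45, 0.44 and 0.43. KRT10, whose epidermal partner KRT1 had 0 UMIs in either pool, was closest to the housekeeping genes RPL36AL, ATP6V0E1 and EIF1, at 0.30, 0.30 and 0.28.

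Lists of other epithelial genes placed the members further. KRT5 had r of at least 0.2 in both pools with 11 of 15 proliferation genes, KRT14 with 6, KRT18 with 4 and the other 7 members with none. Over all 12214 genes ranked, 8.80% reached this r with KRT5, 2.51% with KRT14 and 4.98% with KRT18. The largest were with TK1, a thymidine kinase of S phase (0.36 in the aged pool and 0.41 in the young pool), and PCNA, the sliding clamp of replication (0.38 in each). These and the genes in the rest of the paragraph were picked after their values were seen. Levels were not thinned here. The r against log10 UMIs was 0.33 and 0.36 for KRT5, 0.26 and 0.31 for KRT14, and 0.39 and 0.37 for KRT18. The part of depth in the list correlations was not tested. KRT6A was at 0.2 or above with 5 of 11 squamous differentiation genes (0.352% of all genes ranked). It stood below 0 with KLK5, DSG1 and CALML5 of this list in each pool. Other members also reached this r with squamous genes: KRT15 with 4, KRT8 and KRT18 with 3 each and KRT19 with 2. KRT5, KRT16 and KRT17 did so with 1 each, and KRT14 with none. KRT10 had none either, IVL standing at -0.08 and -0.03. Only 0.2047% of all genes ranked reached this r with KRT10, so none of 11 does not set this list apart. KRT15 was at 0.2 or above with 4 of 20 epithelial transcription factors (3.17% of all genes ranked), among them ELF3 (0.52 and 0.48) and EHF (0.50 and 0.48), and at -0.2 or below with 2. Of 20 desmosome and hemidesmosome genes KRT15 was at 0.2 or above with 5 and at -0.2 or below with 5. KRT8 and KRT16 had these same counts with the desmosome and hemidesmosome list, so they do not mark KRT15 out. The share of all genes ranked at -0.2 or below was not computed, so the counts below cannot be weighed. VIM, the mesenchymal intermediate filament gene, stood at -0.41 and -0.40 with KRT5.

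Other keratins were as level between the pools as the members. Of 23 genes in that list, VIM included, 6 were measured and none stood 1.5-fold apart. KRT81 had 2437 CPM in the aged pool and 2404 CPM in the young pool, KRT7 had 1844 and 1858 CPM, and KRT6B, a close relative of KRT6A, had 1269.8 and 1356 CPM, the lowest ratio of the list at 0.936. KRT80 had the highest ratio, 1.09, at 22.3 and 20.4 CPM. KRT6B thus exceeded KRT6A in level in both pools. Its hashing-tag sets did not overlap, the aged sets being lower, which held for 1.73% of all measured genes. In the other lists PCNA and RRM2 also had lower aged sets, and DSG2 had higher ones.

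None of 20 desmosome and hemidesmosome genes measured, 14 epithelial transcription factors or 14 proliferation genes stood 1.5-fold apart. At their ends were PPL (ratio 1.10) and LAMA3 (0.704), KLF4 (1.19) and EHF (0.993), and MCM6 (1.09) and CDK1 (0.919). Of the 6 squamous genes measured, 3 were 1.5-fold or more lower in the aged pool, against 0.166% of all measured genes. These were S100A7, at 148 CPM in the aged pool and 287 CPM in the young pool (1.94-fold lower, 1.90 to 1.99), SBSN, at 17.3 and 31.0 CPM (1.79-fold), and SPRR1B, at 15.03 and 25.6 CPM (1.70-fold). SBSN and SPRR1B stood under 20 CPM in the aged pool and counted as measured only through the young pool, where they were higher. The lists were also chosen with earlier results of these data known. The 3 of 6 therefore cannot be weighed against the share over all measured genes. KLK5 had the highest ratio of the squamous list, 1.10. Of 12 wound and stress genes measured 1 was lower, S100A8, at 109 CPM in the aged pool and 176 CPM in the young pool (1.61-fold), and EREG had the highest ratio, 1.03. The list medians of the log2 ratio were -0.37 for the squamous and -0.28 for the wound and stress genes. These calls depended on which cells were counted: over cells with 1 hashing tag the fold by which each was lower in the aged pool was 1.38 for S100A7, 1.42 for SPRR1B and 0.733 for S100A8, which was then higher in the aged pool. Without its top cell in each pool SPRR1B was 1.43-fold lower, and without the cells tagged H-HTO-1 SBSN was 1.49-fold and S100A8 1.39-fold lower. With the H-HTO-2 cells left out S100A8 was 3.20-fold lower, and with every cell weighted equally S100A7, SPRR1B and S100A8 were 1.46-, 1.41- and 1.45-fold lower.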

How the data were processed

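The deposited matrices hold whole-number UMI counts for every gene of both species and every antibody tag in each barcode. They came from Cell Ranger 6.0.0 with GRCh38 and mm10, per the submitters' processing notes. Barcodes with a human share of gene UMIs of at least 0.9 were called human (2436 in the aged and 2494 in the young pool), and those with at most 0.1 mouse. Cells were kept with at least 500 UMIs, 300 genes and at most 20% mitochondrial UMIs. Scrublet (scanpy 1.11.5, expected rate 0.1) was run per pool and species. Cells with a score of at least 0.25, a limit set after scores were seen, were removed (172 and 145 human cells). This left 2001 and 2105 human cells with 77321298 and 79145096 UMIs.

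CPM are summed UMIs per 1000000 human UMIs. Intervals are 95% exact Poisson or binomial and cover counting error only. With 1 library per group no p-value was computed. A gene stood apart at 1.5-fold. Tags were assigned at 10 counts and 3 times the second tag. Clustering used 2000 variable genes without keratins, 30 components, 15 neighbours and Leiden resolution 1 (leidenalg 0.10.2). TMM (edgeR 4.0.16) and median-of-ratios factors (DESeq2 1.42.0) served as alternative scalings of the counts. The ratio and its interval were tested on simulated data. Named genes are all members, the list genes with the highest and lowest ratio, the 3 other keratins of highest level, and the 3 genes most like each member; other genes are marked. The members and lists were chosen with earlier results of these data known. One item is not reported here.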

Additional observations from a re-analysis of the deposited data

How the results depend on the processing

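The count of keratins past 1.5-fold was 0, and became 1 (KRT6A) when the cells tagged H-HTO-2, H-HTO-3 or H-HTO-4 were left out; over the 17 alternatives its ratio of aged over young ran from 0.609 to 0.898. The ratios of KRT14 and KRT18 also stayed on 1 side of even under all 17, and the other 7 members, which lie near even, crossed it under at least 1 alternative; over cells with 1 hashing tag only 1 of the 10 was higher in the aged pool, against 7 as reported. The count over all measured genes, 10 as reported, was 16 at a human share of 0.98, 17 without mitochondrial and ribosomal genes in the total, 16 over cells with 1 tag, 42 without H-HTO-2, 24 without H-HTO-4, 3 at a minimum of 100 CPM and 3977 with no minimum. TMM and median-of-ratios scaling moved every log2 ratio by -0.0037 and -0.013. Pairs with r of at least 0.2 in both pools numbered 17, 8 with cells thinned to 5000 UMIs, and 14 to 18 under the other alternatives. Of the other epithelial lists 4 genes stood apart, and 2 at a minimum of 100 CPM. The 6 members found in over 50% of thinned cells in both pools became 8 at 5000 UMIs or unthinned, and the 10 members over 2-fold apart between clusters became 9 at Leiden resolution 0.5. No paired analysis was possible because each group has 1 gene expression library. The cause of these moves was not tested.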
